A study of Homo sapiens with 12 samples.

Results

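Gain of Sharp1 was set directly against loss of the hypoxia-inducible factors (HIFs) in MDA-MB-231, a widely used human cell line that came from a metastatic breast cancer, gene by gene, to show where the cells differ and where they are alike. The members are the 8 arrays titled for Sharp1 or shHIF, 4 of each with the letters A to D, of 12 in the series. The Sharp1 cells overexpress Sharp1, the product of BHLHE41, and the shHIF cells carry a retroviral construct with hairpins against HIF1a and HIF2a, the products of HIF1A and EPAS1. The 4 remaining arrays are of cells with a retroviral hairpin against GFP (shGFP). They enter no contrast here, only an alternative fit of all 12 arrays, and their level is given as a reference. Cells were kept in DMEM/F12 with serum under normal conditions and were not treated, and the protocols name no hypoxia step. The vector of the Sharp1 cells, whether those cells also carry a control hairpin, and whether any group is a clone are not stated in the labels. An effect of the constructs and an effect of Sharp1 or HIF therefore cannot be told apart. The labels call the replicates biological without naming separate cultures, so p-values may measure technical spread only.

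Sharp1, also named DEC2, is a basic helix-loop-helix repressor that binds E-box DNA and is best known from the circadian clock. HIF1a and HIF2a are the oxygen-regulated subunits of transcription factors that pair with ARNT and drive genes of glycolysis, blood vessel growth, matrix remodelling and pH control. In oxygen they are hydroxylated, bound by the VHL ubiquitin ligase and degraded. The study's title links Sharp1 to degradation of HIF proteins, which RNA levels do not measure.

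Values are log2 signals made with RMA, a method that corrects background, normalises between arrays and gives 1 value per probe set. Each gene is read on its brightest probe set, differences are Sharp1 minus shHIF on the log2 scale, and ± is the SD of 4 arrays. Other probe sets of a gene did not always pass, and they are given for some genes only. Array medians lay between 5.39 and 5.44, the lowest correlation within a group was 0.996, and the highest correlation between a Sharp1 and an shHIF array was 0.991. Spike-in transcripts were low on shHIF A (9.97) and shHIF D (10.02), where the remaining shHIF arrays read 10.2 to 10.3 and the Sharp1 arrays 10.3 to 10.4. Group means were 10.3 and 10.1 in Sharp1 and shHIF cells (exact two-sided permutation test, p = 0.0857, adjusted p = 0.257 over 6 measures). With 4 arrays against 4 the smallest p this test allows is 0.0286, or 0.171 adjusted for a single measure, so it says nothing about likeness. Sharp1 array B gave 12.2 for ribosomal RNA, and the other 7 gave at least 13.3. The part of these values in the gene results was not tested, but counts without shHIF A and D are given with the main counts. The 8 markers fixed for MDA-MB-231, such as VIM, CD44 and CAV1, were all above the median probe set of 5.41 in both groups, with a summed signal of 68043 to 72117 per Sharp1 array and 57753 to 60951 per shHIF array. Of 8 measured leukocyte markers 6 were at or below that median in both groups, PTPRC, the pan-leukocyte CD45, among them, as were 5 of 8 fibroblast markers. Among 11 luminal markers CDH1, FOXA1 and PGR were below it, while the keratins KRT8 and KRT18 were bright.

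The genes targeted by design check the labels. BHLHE41 read 9.56, 8.87, 9.30 and 9.22 on Sharp1 arrays A to D and 3.83, 4.23, 3.85 and 4.00 on the shHIF arrays. The groups lay far apart, at 9.24 ± 0.29 against 3.98 ± 0.19, a difference of 5.26 or 38.3-fold (limma adjusted p = 2.86e-16). A second probe set was higher by 1.61. The third went the other way, at 4.56 in Sharp1 cells, 6.66 in shHIF cells and 6.62 in shGFP cells (difference -2.10, limma adjusted p = 5.80e-11), and the fourth did not pass (-0.15, limma adjusted p = 0.270). Which part of the transcript each probe set reads was not analysed here.

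EPAS1 read 8.81, 8.81, 8.82 and 8.85 in Sharp1 cells and 6.40, 6.83, 6.77 and 6.72 in shHIF cells, with 9.53 ± 0.06 in shGFP. All shHIF arrays were low, and the difference was 2.14 or 4.42-fold (limma adjusted p = 1.82e-13). The mean of all 3 EPAS1 probe sets gave 0.76, since the other pair was dim and did not pass. HIF1A read 12.94, 12.88, 12.82 and 12.84 against 11.99, 12.10, 12.08 and 12.04, with 12.78 ± 0.02 in shGFP. The groups were separate, but the shHIF level lay only 0.82 or 1.76-fold below Sharp1 (limma adjusted p = 2.64e-12). At the RNA level the HIF-depleted cells were thus lower for both subunits than the Sharp1 cells. CCNG2, an atypical cyclin known with Sharp1 as a target of p63, read 8.48, 8.53, 8.50 and 8.68 in Sharp1 cells against 8.86, 9.12, 9.19 and 9.03 in shHIF cells. It was lower in Sharp1 cells by 0.50 (limma adjusted p = 8.64e-06), on 4 of 5 probe sets.

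The states differed broadly but mostly by small amounts. Of 19775 genes tested, with no filter on low values, 7267 (36.7%) differed at a limma adjusted p under 0.05. Of these, 3442 (17.4%) were higher and 3825 (19.3%) lower in Sharp1 cells, and the median size of a called difference was 0.34. Differences of 2-fold or more were found for 258 genes higher (1.30%) and 219 lower (1.11%). The 4 arrays of one group lay wholly beyond the other 4 for 6998 genes (35.4%). Without shHIF arrays A and D, 6314 genes passed, 5851 of them the same. With each array centred on its median the surplus of lower calls turned, to 3762 higher and 3075 lower, so the balance between the directions is not a result. In bulk samples fewer cells of a kind and less RNA per cell cannot be told apart.

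Likeness was tested by its own bound, because a missed threshold does not show it. A gene counted as equivalent where the data placed its difference within 0.32 in either direction (paired one-sided limma tests, adjusted p under 0.05). This held for 9290 genes (47.0%), of which 1180 were also called, with differences of at most 0.25. A further 4398 (22.2%) were neither called nor equivalent. The outcome moved with signal: in the dimmest 10% of genes 3.84% were called and 69.1% equivalent, and in the brightest 10% 62.9% were called and 65.8% equivalent. Likeness of probe sets near background is therefore weak evidence of like transcript levels.

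**Figure D1:**
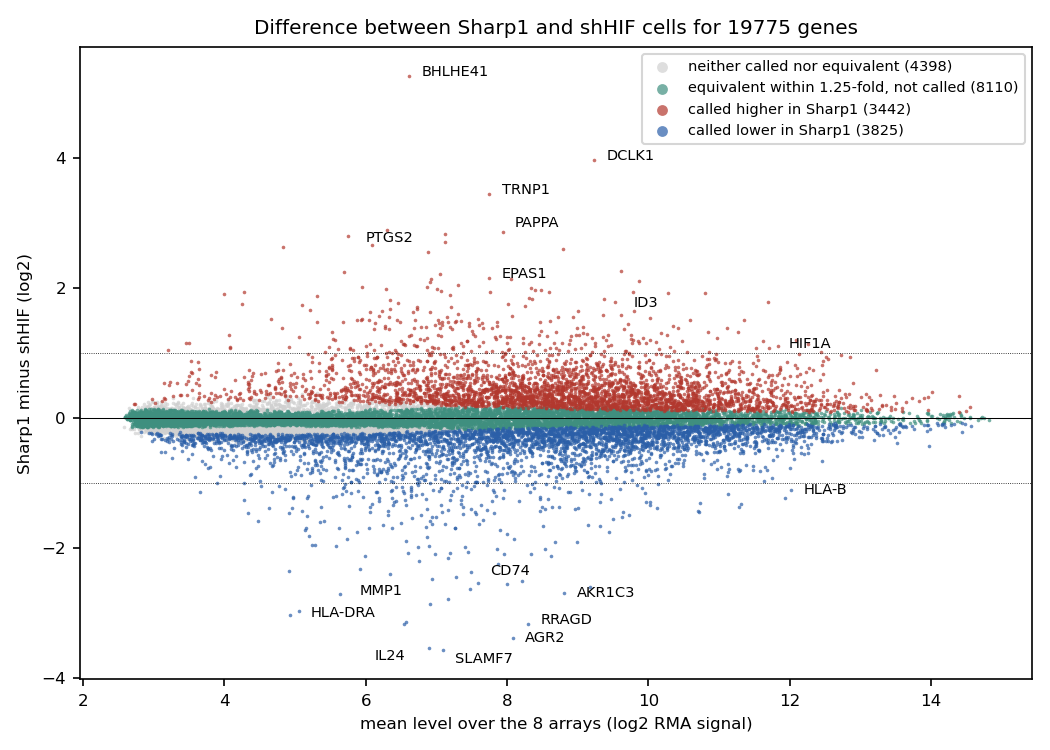
Each point is 1 of 19775 genes, placed by its mean log2 signal over the 8 arrays (x axis) and its Sharp1 minus shHIF difference in log2 units (y axis), and coloured by its call. The bulk of called genes lie within the dotted lines at 2-fold, BHLHE41 stands highest, and SLAMF7, IL24 and AGR2 lie lowest.

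After BHLHE41 itself, the gene furthest above shHIF was DCLK1, a doublecortin-like kinase of neurons and tuft cells. DCLK1 read 11.22, 11.24, 11.23 and 11.16 in Sharp1 cells and 7.25, 7.30, 7.43 and 7.01 in shHIF cells. Every Sharp1 array was high, and all 4 probe sets passed (difference 3.97, 15.6-fold, limma adjusted p = 1.05e-17). TRNP1, a nuclear protein that controls division of neural progenitors, followed with 9.42, 9.59, 9.44 and 9.44 against 5.95, 6.15, 6.09 and 5.89. The 2 groups were 10.9-fold apart, and shGFP lay between them at 7.69 ± 0.01. PAPPA, a secreted protease that cleaves IGF-binding proteins, read 9.49, 9.16, 9.40 and 9.43 against 6.56, 6.42, 6.74 and 6.30, and was 7.28-fold higher. PTGS2, the inducible cyclooxygenase COX-2, read 8.46, 8.39, 8.58 and 8.46 against 5.68, 5.82, 5.75 and 5.83. It was 6.51-fold higher (limma adjusted p = 2.15e-15), with shGFP close to the shHIF level at 5.35 ± 0.20.

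Other genes of this group were ZFPM2, a cofactor of GATA factors (2.89), MYCT1 (2.83), the peptide hormone SPX (2.79), the neural adhesion proteins CNTN1 (2.66) and TENM2 (2.56), and INHBE, an activin subunit (2.63). MAOA, which oxidises monoamines (2.60), RGS4, a brake on G protein signalling (2.25), POU3F2, a neural POU factor (2.25), and SMAD9, a transducer of BMP signals (2.14), were also among the 20 furthest above. The other SMAD9 probe set gave 0.04 and was not called. GXYLT1, which adds xylose to Notch, differed on the shHIF side: it read 9.22, 9.10, 9.16 and 9.04 in Sharp1 cells, 9.17 ± 0.04 in shGFP, and 7.05, 6.98, 6.99 and 6.96 in shHIF cells. For 17 of these 20 genes shGFP lay nearer to shHIF than to Sharp1, against 1787 of all 3442 genes called higher, and for 12 it lay between the groups, against 2219. These positions are a description, with no contrast against shGFP tested.

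The genes furthest below shHIF were led by SLAMF7, a surface receptor best known from lymphocytes. SLAMF7 read 5.39, 5.19, 5.35 and 5.27 in Sharp1 cells and 8.88, 8.95, 8.91 and 8.78 in shHIF cells. All Sharp1 arrays were low, by 3.58 or 11.9-fold on this probe set and lower on all 3 (limma adjusted p = 9.07e-17), and shGFP read 8.73 ± 0.10, close to shHIF. IL24, a cytokine of the IL-10 family, read 5.16, 5.20, 4.86 and 5.26 against 8.60, 8.67, 8.73 and 8.63. It was 11.6-fold lower in Sharp1 cells, and shGFP stood between at 7.25 ± 0.10. AGR2, a disulfide isomerase of secretory epithelia, was 10.4-fold lower. RRAGD, a Rag GTPase that signals amino acid supply to mTORC1, read 6.75, 6.60, 6.68 and 6.81 against 9.76, 9.88, 9.83 and 10.03, which is 8.96-fold lower.

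ADTRP, which regulates tissue factor pathway inhibitor (-3.16), the class II molecules HLA-DRA (-3.13) and HLA-DPA1 (-2.97), and the sialyltransferase ST6GALNAC5 (-2.71), a gene tied to brain metastasis of breast cancer, were in the same group. So were the kinase NRK (-2.79), ARMCX1 (-2.59), the phosphoinositide phosphatase INPP4B (-2.51) and BEX2 (-2.41). MMP1, the interstitial collagenase, read 5.31, 5.34, 5.74 and 5.55 in Sharp1 cells and 8.20, 8.52, 8.39 and 8.27 in shHIF cells. The 4 shHIF arrays were high and did not overlap the others (7.26-fold, limma adjusted p = 5.58e-14), with shGFP at 6.77 ± 0.03. The control lay between the groups for 19 of the 20 genes furthest below, and nearer to shHIF for 14, against 2395 and 1686 of all 3825 genes called lower.

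**Figure D2:**
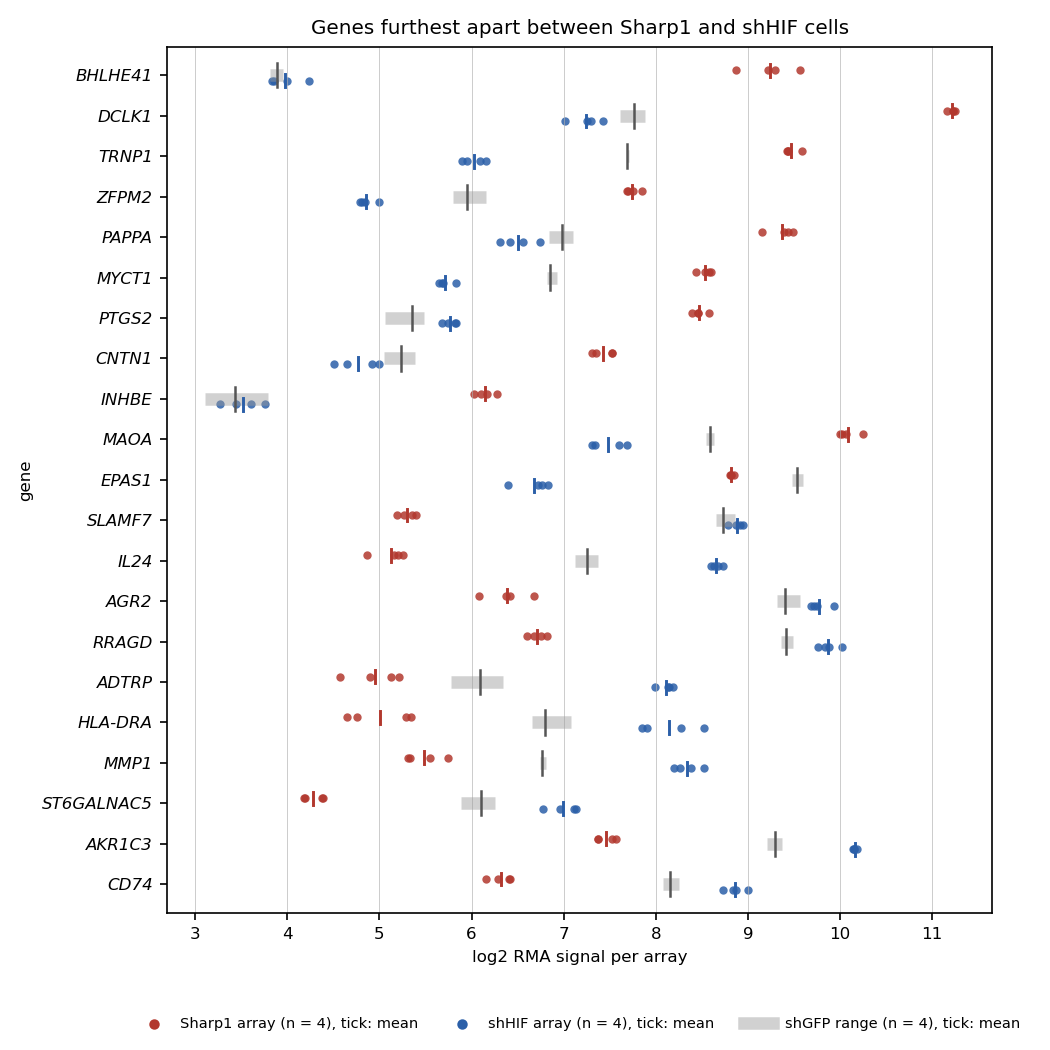
Each point is the log2 signal of 1 array (x axis) for 21 genes far apart between the groups or targeted by design (y axis), with red for Sharp1, blue for shHIF, ticks at the means and a grey bar over the range of the 4 shGFP arrays. Sharp1 and shHIF arrays overlap for none of these genes, and the grey bar falls between them for several, such as TRNP1, IL24, ADTRP, MMP1, CD74 and AKR1C3.

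Several genes had Sharp1 and shHIF on opposite sides of the control, and they were named for that position. TRNP1, ZFPM2, MYCT1, MAOA, POU3F2, CTHRC1, FRMD3 and IL17RD were above shGFP in Sharp1 cells and below it in shHIF cells. IL17RD, a feedback inhibitor of FGF receptor signalling, showed the pattern at 9.56 ± 0.07, 8.71 ± 0.06 and 7.63 ± 0.17 in Sharp1, shGFP and shHIF cells. CTHRC1, a secreted matrix protein, stood at 7.96 ± 0.08, 6.77 ± 0.14 and 5.87 ± 0.21. In the other order were IL24, ADTRP, HLA-DRA, HLA-DPA1, MMP1, SPINK4, AKR1C1 and AKR1C2. SPINK4, a protease inhibitor of mucosa, stood at 6.16 ± 0.20 in Sharp1, 7.37 ± 0.16 in shGFP and 8.80 ± 0.13 in shHIF cells. For these genes gain of Sharp1 and loss of HIF left the cells on either side of the control level.

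Genes of known roles were grouped into 41 lists, of which 1066 of 1130 entries were measured. For each list the counts of members higher, lower and equivalent stand beside 17.4%, 19.3% and 47.0% of all genes, and its median beside -0.06. The lists were drawn up with earlier results of these data known, so their counts are descriptions and no test of a list is given. Every gene called higher or lower passed limma at an adjusted p under 0.05, and the standard errors of the differences named ran from 0.03 to 0.16. With the mean of all probe sets of a gene instead of the brightest, 59 of the 179 called genes named here moved by more than 1.5 times, most of them toward 0, and those whose calls ended or turned are named where they appear.

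**Figure D3:**
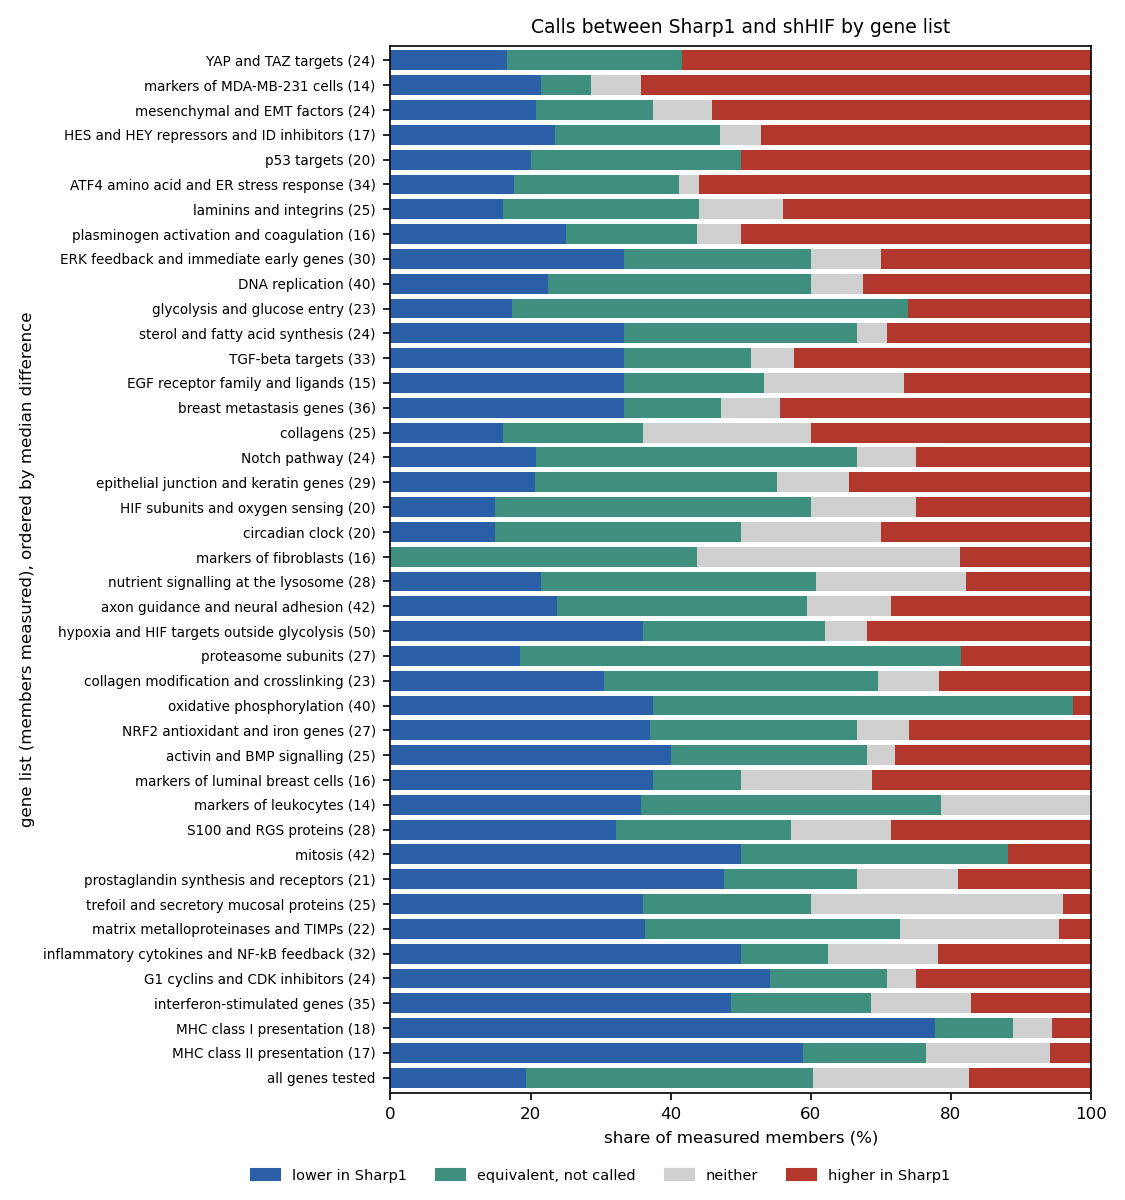
Each bar is a gene list with the number of measured members, split into the percentage lower in Sharp1 (blue), equivalent and not called (green), neither (grey) and higher in Sharp1 (red), with all genes tested at the bottom. From the next bar up lists are ordered by median difference, from MHC class II presentation at -0.56 to YAP and TAZ targets at 0.33.

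Among HIF subunits and oxygen-sensing genes 5 of 20 were higher and 3 lower, and 10 were equivalent. Besides EPAS1 and HIF1A, their partner ARNT was higher in Sharp1 cells by 0.66, from 7.01 ± 0.27 to 7.67 ± 0.11. SIAH2, a ubiquitin ligase for the HIF prolyl hydroxylases, was lower by 0.62. The count lower was 5 without shHIF replicate C.

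HIF targets outside glycolysis went both ways: 16 of 50 were higher in Sharp1 cells, 18 lower and 17 equivalent, with a median of -0.04. VEGFA, the blood vessel growth factor, read 11.30, 11.18, 11.17 and 11.28 in Sharp1 cells and 10.27, 10.36, 10.43 and 10.07 in shHIF cells. The Sharp1 arrays were all high, by 0.95 or 1.94-fold on the brightest probe set and higher on all 4 (limma adjusted p = 2.69e-10), with shGFP between at 10.75 ± 0.03. ANKRD37, an early hypoxia target, was higher by 1.15, and the adhesion protein L1CAM by 1.84 on its brightest probe set. The other L1CAM probe set gave 0.01 and was not called. PLAUR, the urokinase receptor, was higher by 0.85 and LOX, a collagen crosslinker, by 0.73.

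In the other direction stood MXI1, an antagonist of MYC, which read 7.65, 7.39, 7.54 and 7.67 in Sharp1 cells against 9.56, 9.73, 9.73 and 9.72 in shHIF cells. All 4 Sharp1 arrays were low, by 2.12 or 4.35-fold (limma adjusted p = 1.38e-14), and shGFP read 9.43 ± 0.07. STC1, a secreted glycoprotein, differed by -2.10, -1.34 and -1.74 on its 3 probe sets. EFNA1, an ephrin, was lower by 1.15, and P4HA2, a collagen prolyl hydroxylase, by 0.90, though the mean of its 3 probe sets gave -0.09 and did not pass. Another P4HA2 probe set was called higher, by 0.54 (limma adjusted p = 6.88e-05). CEMIP, a hyaluronan-degrading protein, was lower by 2.08 on one probe set and -0.22, not called, on the other.

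BNIP3, a mitophagy receptor and a classic HIF target, was below shGFP in both groups, and further in Sharp1 cells. It read 10.44, 10.53, 10.60 and 10.57 in Sharp1 cells, 11.74, 11.68, 11.83 and 11.57 in shHIF cells and 12.29 ± 0.04 in shGFP. The groups did not overlap, and the Sharp1 level was 2.25-fold below the HIF-depleted level (limma adjusted p = 1.36e-12). BNIP3 lies outside the rule for named genes and was chosen after its values were seen.

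The promoters of BHLHE41 and BNIP3 are shown because both hold the E-box letters CACGTG, the core that helix-loop-helix factors such as Sharp1 are known to bind. The sequences are the 150 bases before the start from RefSeq (GRCh38.p14), on the minus strand, at chr12:26125038-26125187 and chr10:131981924-131982073, with the motif in capitals.
BHLHE41: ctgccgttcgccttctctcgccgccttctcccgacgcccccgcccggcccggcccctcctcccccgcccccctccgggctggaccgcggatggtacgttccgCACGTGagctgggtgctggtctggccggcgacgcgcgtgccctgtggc
BNIP3: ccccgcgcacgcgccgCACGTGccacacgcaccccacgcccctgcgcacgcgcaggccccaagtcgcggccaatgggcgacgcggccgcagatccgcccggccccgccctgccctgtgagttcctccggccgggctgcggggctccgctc
The motif, a palindrome and so the same on both strands, starts 48 bases before the BHLHE41 start and 134 before the BNIP3 start. Of the 35116 promoters in the table, 4.57% hold it in this window. By gene, 7.18% of the 15384 tested genes with a promoter hold it, as do 6 of 41 of the HIF targets, 1 of 17 of the leading higher genes and 3 of 15 of the leading lower genes. A match is a description of the letters, not a bound site, and does not tell Sharp1 from other factors.

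Of 23 glycolysis genes 14 were equivalent (60.9%), 6 higher and 4 lower. That share is above the 47.0% of all genes, but these genes are bright. The list's median level was 10.97 in Sharp1 and 11.07 in shHIF cells. In the brightest 10% of genes, from 10.59 up, 65.8% were equivalent. LDHA, which makes lactate, stood at 14.01 ± 0.03 and 13.98 ± 0.04, and GAPDH at 14.29 ± 0.02 and 14.23 ± 0.05, both equivalent (limma adjusted p = 6.16e-06 and 1.03e-05). PGK1 was also equivalent, with a difference of 0.00 (95% interval -0.07 to 0.07). The glucose transporter SLC2A3 was higher in Sharp1 cells by 1.26 on the brightest of 3 probe sets, ALDOC by 0.63 and PGAM1 by 0.53. PDK3, which slows pyruvate entry into mitochondria, was lower by 0.48.

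Of 20 circadian clock genes 6 were higher and 3 lower in Sharp1 cells, BHLHE41 itself included. The nuclear receptor RORB was higher by 1.47 and BMAL2, a partner of CLOCK, by 0.75, each on its brightest probe set. The other BMAL2 probe sets gave 0.18 and 0.08 and were not called. PER2, a clock repressor, was lower by 0.81, and BHLHE40, which encodes the sister repressor DEC1, by 0.38, at 8.69 ± 0.15 against 9.07 ± 0.17. With shHIF arrays A and D only, the count lower was 5.

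Of the 4 genes for ID proteins, which bind helix-loop-helix factors and keep them off DNA, 3 were higher in Sharp1 cells. ID3 read 10.25, 10.38, 10.55 and 10.44 against 8.78, 8.96, 8.76 and 8.79 in shHIF cells. The Sharp1 arrays were all high, 3.00-fold above shHIF (limma adjusted p = 2.68e-13), with shGFP lowest at 8.16 ± 0.11. ID1 was higher by 1.31 and ID4 by 1.96. ID2, dimmer, stood at 5.54 ± 0.05 and 5.34 ± 0.28 and was neither called nor equivalent, though it was called higher without shHIF replicate B (0.33) and with shHIF A and D only (0.39). HES1, a repressor induced by Notch, went the other way at 6.18, 6.16, 6.38 and 6.52 against 8.66, 8.78, 8.69 and 8.58. It was 5.16-fold lower on this probe set and -2.18 on a second, while the third, dim one read 0.03 and was not called. Over the HES, HEY and ID list, 8 of 17 genes were higher and 4 lower. The Notch list held 13 of 24 equivalent genes, with the ligand JAG1 lower by 0.82, and the coactivators MAML2 higher by 0.82 and MAML3 lower by 0.91. The other MAML3 probe sets gave -0.08 and -0.07 and were not called.

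Antigen presentation showed the lowest list medians. MHC class II molecules display peptides from the endosome to CD4 T cells, with the invariant chain CD74 as their chaperone and HLA-DM as peptide editor. Of 17 measured class II genes 10 were lower in Sharp1 cells, 8 of them at least 2-fold, and 1 was higher. HLA-DRA read 5.34, 5.29, 4.76 and 4.65 in Sharp1 cells and 7.90, 8.53, 8.28 and 7.86 in shHIF cells. The Sharp1 arrays were all low, by 8.77-fold on this probe set (limma adjusted p = 7.89e-12), and shGFP lay between at 6.80 ± 0.20. CD74 read 6.29, 6.16, 6.40 and 6.42 against 8.84, 8.73, 8.87 and 9.0, which is 5.83-fold lower, while its other 2 probe sets, both dim, did not pass. HLA-DRB1 (-1.63), HLA-DMA (-1.48), HLA-DPB1 (-1.19) and HLA-DMB (-1.10), named after their values were seen, were lower too, though the second probe set of HLA-DPB1 gave -0.03 and was not called.

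The regulators of class II genes varied. CIITA, the master coactivator, stood at 5.20 ± 0.09 and 5.45 ± 0.14, a difference of -0.26 that missed the threshold (limma adjusted p = 0.0509) and was not equivalent. It passed in 5 of 17 alternatives: without Sharp1 replicate A (-0.30), without shHIF replicate C (-0.32), with shHIF A and D only (-0.35), with the mean of its 3 probe sets (-0.27) and with eBayes without a trend (-0.26). Over the alternatives its limma adjusted p ran from 0.0169 to 0.321. In a fit over all probe sets, 1 of the 3 CIITA probe sets was called lower and none higher. RFX5 and RFXANK, subunits of the factor that binds the X box of class II promoters, were equivalent at -0.02 and -0.04. A second RFX5 probe set, however, gave -0.31 and was called lower (limma adjusted p = 0.00251). The third subunit gene RFXAP was higher by 0.99. Other leukocyte genes moved beside these: LAPTM5, a lysosomal protein of blood cells, was 4.04-fold lower in Sharp1 cells, but the 8 fixed leukocyte markers summed to 225 to 268 per Sharp1 array and 244 to 271 per shHIF array. PTPRC read 4.45 and 4.38, and none of the 8 was called. Of a longer list of 14 leukocyte genes 5 were lower in Sharp1 cells (3 with shHIF A and D only, 2 with dim genes left out) and none higher, and their part in the class II result was not tested.

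Class II promoters are known for an inverted CCAAT box, the Y box, near the start. Those of CD74, HLA-DMA, HLA-DPB1 and HLA-DRB1 are shown because class II genes were lower together, and each holds the letters marked. The promoters of HLA-DRA and HLA-DPA1, which were lower by more, are not shown. The sequences are the 150 bases before the start from RefSeq (GRCh38.p14), with the letters CCAAT or their reverse complement ATTGG in capitals. They lie at chr5:150412911-150413060 (CD74, minus strand), chr6:32953098-32953247 (HLA-DMA, minus), chr6:33075840-33075989 (HLA-DPB1, plus) and chr6:32589849-32589998 (HLA-DRB1, minus).
CD74: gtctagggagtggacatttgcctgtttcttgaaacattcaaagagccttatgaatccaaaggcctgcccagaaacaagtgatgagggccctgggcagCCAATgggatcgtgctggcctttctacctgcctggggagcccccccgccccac
HLA-DMA: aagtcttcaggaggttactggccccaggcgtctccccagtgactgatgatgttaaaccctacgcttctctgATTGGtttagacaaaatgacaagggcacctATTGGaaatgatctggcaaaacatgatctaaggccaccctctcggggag
HLA-DPB1: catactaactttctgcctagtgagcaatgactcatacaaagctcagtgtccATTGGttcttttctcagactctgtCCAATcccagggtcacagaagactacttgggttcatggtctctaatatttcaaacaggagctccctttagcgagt
HLA-DRB1: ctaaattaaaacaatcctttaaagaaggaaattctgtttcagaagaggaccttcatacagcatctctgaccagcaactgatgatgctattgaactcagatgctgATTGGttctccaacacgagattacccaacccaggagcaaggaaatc
On both strands together, CCAAT was found in this window for 11 of the 14 class II list genes with a promoter, against 30.8% of all tested genes with one and 23.5% of the 35116 promoters. In the 15 class I list genes it was found in 6. It was also found in 8 of 15 of the leading lower genes, which include class II genes such as HLA-DRA, and in 4 of 17 of the leading higher genes. The match in CD74 is CCAAT in the forward direction, not the inverted ATTGG.

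Class I presentation, which displays cytosolic peptides to CD8 T cells, was lower as well: 14 of 18 genes were lower in Sharp1 cells, 1 was higher (2 in 8 of the alternatives) and 3 were equivalent, with a median of -0.36. HLA-B, a class I heavy chain, read 11.42, 11.45, 11.49 and 11.5 against 12.59, 12.59, 12.47 and 12.67. All shHIF arrays were high, by 2.16-fold on this probe set (limma adjusted p = 1.38e-13). The other 2 gave -0.91 each and were called, though probe sets of class I genes can read each other's transcripts. Here the control sided with Sharp1, at 11.62 ± 0.07. The immunoproteasome subunits PSMB9 and PSMB8 were lower by 1.66 and 0.95. HLA-E was equivalent at -0.10 on its brightest probe set, while another gave -0.20 and was called lower. The peptide transporter TAP2 was higher by 0.65 on its brightest probe set only. Its other probe sets gave 0.02, 0.07 and 0.06 and were not called.

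Interferon-stimulated genes were lower in 17 of 35 cases and higher in 6, with a median of -0.24 and no difference of 2-fold. GBP2, a guanylate-binding protein (-0.98), and the antiviral OAS2 (-0.95) and OAS3 (-0.88) were lower in Sharp1 cells, whereas EPSTI1 (0.94) and IRF9 (0.62), part of the interferon-driven transcription factor ISGF3, were higher. BST2, which tethers virus particles, was equivalent at 9.69 ± 0.12 and 9.73 ± 0.09.

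**Figure D4:**
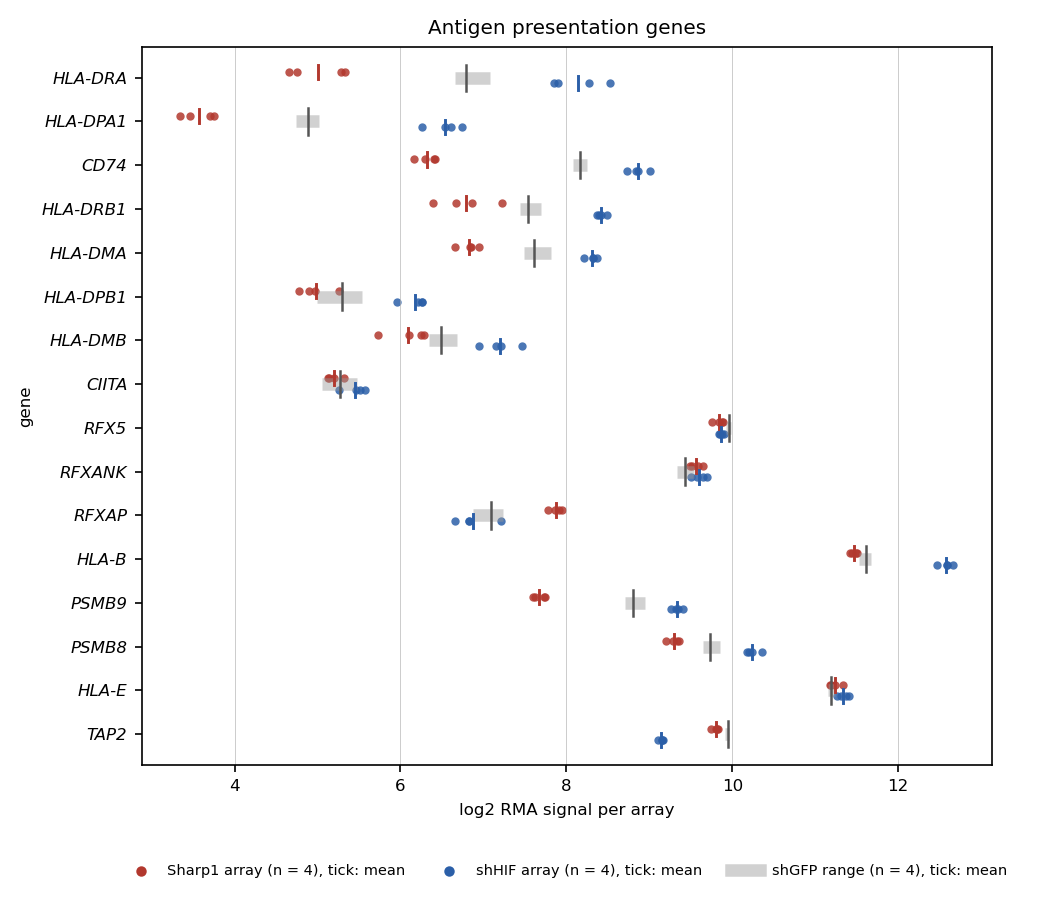
Each point is the log2 signal of 1 array (x axis) for class II genes and their regulators (HLA-DRA to RFXAP) and class I genes (HLA-B to TAP2), with red for Sharp1, blue for shHIF, ticks at means and a grey bar over the 4 shGFP arrays. The class II molecules sit to the left in Sharp1 cells, RFX5 and RFXANK overlap, and RFXAP and TAP2 sit to the right.

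Inflammatory genes were more often lower than higher in Sharp1 cells, at 16 and 7 of 32, with 5 equivalent and a median of -0.23. After IL24, the death ligand TNFSF10 was lower by 1.44 and NFKBIE, an inhibitor of NF-kB, by 0.81. IL11, an IL-6 family cytokine tied to bone metastasis, was higher by 1.02 and 0.69 on its 2 probe sets, SOD2 by 0.85 and NFKBIZ by 0.83.

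In prostaglandin metabolism 4 of 21 genes were higher in Sharp1 cells and 10 lower. PTGS2, PLA2G4A, which frees arachidonic acid (0.75), and the receptor PTGER2 (1.02) were among the higher genes. AKR1C3, a ketoreductase of prostaglandins and steroids, read 7.38, 7.38, 7.57 and 7.53 against 10.18, 10.16, 10.14 and 10.16. The shHIF arrays were all high, by 6.48-fold (limma adjusted p = 9.07e-17), with shGFP at 9.30 ± 0.08. AKR1C1 and AKR1C2 read lower by 2.56 and 2.44, but their sequences are close to AKR1C3, and their probe sets not marked as shared gave -0.11 and -0.09, neither called.

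The AKR1C genes also belong to the NRF2 antioxidant and iron list, where 7 of 27 were higher, 10 lower and 10 equivalent. Without probe sets marked as shared, 6 were lower. SLC40A1, the iron exporter (0.93), SLC7A11, the cystine importer (0.72), and NCOA4, which delivers ferritin to autophagy (0.55), were higher in Sharp1 cells, while FTL, the ferritin light chain, was equivalent at 13.91 ± 0.03 and 13.97 ± 0.02.

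TGF-beta targets split, with 14 of 33 higher, 11 lower and 7 equivalent in Sharp1 cells. TGFBI, a matrix adapter, read 5.52, 5.94, 5.62 and 5.72 in Sharp1 cells and 8.05, 8.17, 8.17 and 8.31 in shHIF cells. The Sharp1 arrays were all low, 5.57-fold (limma adjusted p = 1.34e-13), with shGFP near shHIF at 8.04 ± 0.17. KLF10, an early response factor, was lower by 1.92. SNAI2, the EMT repressor Slug, read 8.58, 8.51, 8.65 and 8.51 against 10.24, 10.35, 10.37 and 10.31 and was 3.37-fold lower. CCN2, a secreted matricellular factor, was in contrast higher by 0.97, and TAGLN, an actin-binding protein, by 1.54 and 1.73 on 2 probe sets, with -0.17, not called, on the third, which was dimmer.

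Activin subunits differed by gene. INHBE read 6.11, 6.17, 6.28 and 6.03 in Sharp1 cells and 3.76, 3.27, 3.60 and 3.44 in shHIF cells. Sharp1 cells were high for it, 6.18-fold, with shGFP at 3.44 ± 0.32, and INHBA was higher by 1.47. INHBB was lower by 0.86. FSTL1, a secreted binding protein, was higher by 1.07, and BMP2 was lower by 1.69. GDF15 was lower by 2.20 on its brightest probe set and not called on the other 2, at 0.03 and -0.15. Of the list's 25 genes 7 were higher and 10 lower.

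YAP and TAZ targets, read-outs of Hippo signalling and cell stretch, had the highest list median, 0.33, with 14 of 24 higher and 4 lower in Sharp1 cells. IGFBP3 read 11.35, 11.33, 11.37 and 11.33 against 9.81, 9.84, 9.79 and 9.93. The groups were tight and 2.83-fold apart (limma adjusted p = 3.32e-15), with shGFP between at 10.67 ± 0.06. ANKRD1, an ankyrin repeat coregulator, was higher by 1.11. AXL, a receptor kinase, was lower by 0.18, within the equivalence bound.

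Mesenchymal genes were higher in 13 of 24 cases and lower in 5. TNC, a matrix glycoprotein, was higher by 1.37, CDH2, N-cadherin, by 1.05, and CD44, the hyaluronan receptor, by 1.01 on its brightest probe set and on 10 of 13. The other CDH2 probe set gave 0.05 and was not called. S100A4, a calcium-binding protein tied to motility, was lower by 1.24, and SNAI2 was lower too, against the direction of TNC, CDH2 and CD44. Epithelial genes were higher in 10 of 29 and lower in 6. KRT19 was higher by 1.51 and GRHL1, an epithelial transcription factor, by 0.93, whereas MAL2, an apical transport protein, was 4.29-fold lower and CLDN4, a tight junction claudin, was lower by 0.94. The dimmer probe sets of KRT19 (-0.13), GRHL1 (0.03) and CLDN4 (-0.25) were not called. CDH1 was dim in both groups.

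In the matrix, 10 of 25 collagen genes were higher and 4 lower. COL4A1, a basement membrane chain, read 10.65, 10.55, 10.62 and 10.64 in Sharp1 cells and 8.98, 8.95, 8.94 and 9.01 in shHIF cells. The groups were 3.13-fold apart (limma adjusted p = 2.15e-15). COL5A2 was higher by 1.38 and COL13A1 by 0.90. On their brightest probe sets COL4A6 was lower by 1.69 and COL6A1 by 1.2. The other COL4A6 probe sets gave 0.03 and -0.22 and were not called, and 4 of 8 COL6A1 probe sets were called lower. LOXL1, a lysyl oxidase of elastic fibres, was higher by 1.72, while among 23 genes of collagen modification 5 were higher, 7 lower and 11 equivalent. Laminins and integrins were higher in 11 of 25 and lower in 4, with ITGA1 (0.75), LAMB2 (0.70) and ITGAV (0.66) higher and ITGB8 lower by 1.09. LAMB3 was equivalent at 11.35 ± 0.02 and 11.43 ± 0.10.

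Matrix metalloproteinases and their inhibitors leaned the other way, with 8 of 22 lower, 1 higher and 8 equivalent. The count lower was 5 without Sharp1 replicate C, and also 5 without shHIF A and D. After MMP1, the membrane-type MMP16 was lower by 1.61 and the inhibitor TIMP4 by 1.29. The other MMP16 probe sets lay between -0.43 and -0.02. RECK, an inhibitor anchored in the membrane, was higher by 0.67. MMP14 (9.59 ± 0.08 and 9.55 ± 0.14) and TIMP1 (11.66 ± 0.05 and 11.70 ± 0.10) were equivalent. In plasminogen activation 8 of 16 were higher and 4 lower, with tissue plasminogen activator PLAT (0.99), its inhibitor SERPINE2 (1.14) and the thrombin receptor F2RL2 (1.97) higher in Sharp1 cells, and TFPI (-0.37) and tissue factor F3 (-0.35) lower.

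Genes tied by others to metastasis of MDA-MB-231 and related cells were higher in 16 of 36 cases, lower in 12 and equivalent in 6, with a median of 0.00. PTGS2, L1CAM, ID1, ID3, TNC, IL11 and SPP1 (1.93), which encodes osteopontin, were on the higher side. The other SPP1 probe set gave -0.001 and was not called. On the lower side were MMP1, ST6GALNAC5, the kynurenine pathway enzyme KYNU (-1.84) and the EGF receptor ligand EREG (-0.99). KYNU read 7.79 ± 0.19 in shHIF cells and 5.95 ± 0.17 in Sharp1 cells, with 5.86 ± 0.22 in shGFP, so the shHIF arrays alone were high. Among EGF family genes HBEGF was higher by 0.97, the receptor ERBB3 by 1.5 on the brightest of 5 probe sets, and NRG1 lower by 0.78.

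Trefoil and other secreted mucosal proteins held 9 lower genes of 25, of which 7 at least 2-fold, and 1 higher, with 12 members below the median probe set. TFF2, a trefoil peptide, read 6.13, 6.46, 6.58 and 6.49 in Sharp1 cells and 8.01, 8.08, 8.26 and 8.09 in shHIF cells. Sharp1 was 3.24-fold below shHIF (limma adjusted p = 2.44e-11), and both were below shGFP at 9.91 ± 0.29. TFF1 was lower by 1.23, TFF3 by 1.00 and the vitamin B12 binder TCN1 by 1.96. SPINK1 was higher by 1.33. The 11 luminal breast markers summed to 17653 to 19354 per Sharp1 array and 13873 to 14751 per shHIF array. Of these, 5 were called higher, the bright KRT18 and KRT19 among them, and 2 lower, GATA3 (-0.37) and SPDEF (-0.50). In a longer list of 16 luminal genes 5 were higher and 6 lower, with a median of -0.12. The part of luminal genes in the trefoil result was not tested. TFF2 was named after its values were seen.

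Cell cycle genes differed by small amounts. G1 cyclins and CDK inhibitors were lower in 13 of 24 and higher in 6, with a median of -0.23, but only 2 were higher with the mean of all probe sets. CCNE1, which drives entry into S phase, read 8.21, 8.29, 8.38 and 8.35 in Sharp1 cells and 9.19, 9.26, 9.25 and 9.24 in shHIF cells. The shHIF arrays were all high, 1.91-fold (limma adjusted p = 6.82e-11), with shGFP lowest at 7.95 ± 0.07. The inhibitor CDKN1B, p27, was lower in Sharp1 cells by 0.89, and CCNG1 by 0.71. CCND2 was higher by 0.60 on the brightest of 4 probe sets, and both groups, at 8.23 ± 0.11 and 7.63 ± 0.05, were above shGFP at 6.26 ± 0.07.

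Of 40 DNA replication genes 25 were equivalent (62.5%), 13 higher and 9 lower. The list's median level was 10.10 in Sharp1 and 10.11 in shHIF cells, and of all genes in that 10% band of signal 53.5% were equivalent. The count lower was 5 without shHIF replicate B or with centred arrays and 4 with shHIF A and D only. TYMS, which makes thymidylate, was equivalent at 13.12 ± 0.01 and 13.09 ± 0.02, while RRM1, the large subunit of ribonucleotide reductase, was lower in shHIF cells by 1.75-fold, from 12.48 ± 0.02 to 11.67 ± 0.05. Among 42 mitosis genes 21 were lower in Sharp1 cells and 5 higher, 29 were equivalent, and no difference reached 2-fold. FOXM1, which drives mitotic genes, was lower by 0.42 and the phosphatase CDC25B by 0.54. The count higher was 2 or 3 in each of 4 fits that left out Sharp1 replicate A or C or shHIF replicate A or D, 3 without both shHIF A and D, and 2 with eBayes without a trend.

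ERK feedback and immediate early genes were higher in 9 of 30 and lower in 10. KLF4, a growth-arrest factor, was lower by 1.44, and FOSL1 and the ERK phosphatase DUSP5 by 0.80 each, while the phosphatases DUSP10 and DUSP1 were higher by 0.69 and 0.64. Among p53 targets, in a line with mutant p53, 10 of 20 were higher and 4 lower: the DNA repair gene DDB2 was higher by 1.14 and the BH3-only gene PMAIP1 by 0.73, and BAX, also a promoter of apoptosis, was lower by 0.71.

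The amino acid and ER stress response run by ATF4 was higher in 19 of 34 genes and lower in 6, with a median of 0.18. CTH, which makes cysteine, read 10.35, 10.39, 10.40 and 10.31 in Sharp1 cells and 9.12, 9.20, 9.13 and 9.16 in shHIF cells. The groups were 2.31-fold apart (limma adjusted p = 1.45e-13), with shGFP near shHIF at 9.28 ± 0.06. PHGDH, of serine synthesis, was higher by 0.76. ATF4 was higher by 0.22, within the equivalence bound. SDF2L1, an ER chaperone partner, was lower by 0.70 and TRIB3, a pseudokinase of this response, by 0.41.

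Sterol and fatty acid synthesis was alike in 14 of 24 genes, with 7 higher and 8 lower. ACLY, which supplies acetyl-CoA, was higher by 0.58 and the sterol carrier STARD4 by 0.57, and ELOVL6, a fatty acid elongase, was lower by 1.02. At the lysosome, where mTORC1 senses nutrients, 5 of 28 genes were higher and 6 lower, of which only RRAGD differed by 2-fold; RRAGC was lower by 0.62, and RRAGA and RRAGB were higher by 0.35 and 0.46. The counts moved to 8 higher with shHIF A and D only and to 3 lower with centred arrays.

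Housekeeping machinery was the most alike. It is also bright, with median levels in Sharp1 and shHIF cells of 12.29 and 12.23 for proteasome subunits. For oxidative phosphorylation they were 11.72 and 11.93. In the brightest 10% of genes 65.8% were equivalent. Of 27 proteasome subunits 26 were equivalent, with 5 higher and 5 lower by small amounts. The count lower was 2 without Sharp1 A, Sharp1 D, shHIF B or shHIF D, with centred arrays and with eBayes without a trend, and 3 without shHIF A. The count higher was 3 without Sharp1 B or shHIF C, and 2 with shHIF A and D only and with eBayes without a trend. PSMB1 stood at 13.01 ± 0.03 in Sharp1 cells and differed from shHIF by 0.01 (95% interval -0.05 to 0.08). Of 40 oxidative phosphorylation subunits 36 were equivalent. There 15 were lower in Sharp1 cells and 1 higher, with 9 lower without Sharp1 replicate A, with centred arrays and without _x_at or _s_at probe sets, and 6 with eBayes without a trend. The count higher was 2 to 5 in 10 of the alternatives, with 2 without Sharp1 replicate B or shHIF replicate B, 3 without shHIF replicate C and 5 with the mean of all probe sets. NDUFB8, of complex I, was lower by 0.59, at 11.53 ± 0.06 against 12.12 ± 0.05.

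Axon guidance and neural adhesion genes were higher in 12 of 42 cases, 5 of them at least 2-fold, and lower in 10. Beyond DCLK1, CNTN1, TENM2 and L1CAM, the semaphorin receptor PLXNA1 was lower by 0.78 and NLGN1, a synaptic adhesion protein, by 0.86. Among S100 and RGS proteins 8 of 28 were higher and 9 lower. RGS4 read 10.75, 10.74, 10.75 and 10.72 against 8.49, 8.62, 8.55 and 8.28, and stood 4.77-fold higher on all Sharp1 arrays, with shGFP at 8.43 ± 0.09. S100P was lower by 0.89, and S100A11 was equivalent at 12.14 ± 0.03 and 12.08 ± 0.09.

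A further group was alike in Sharp1 and shHIF cells but away from the control. These genes were picked by that distance, so it is a description. COL4A5, a basement membrane collagen chain, read 7.08, 7.12, 7.07 and 7.15 in Sharp1 cells, 7.17, 7.07, 7.32 and 7.05 in shHIF cells and 6.27 ± 0.20 in shGFP. The arrays of the 2 groups overlapped, and the difference was -0.05 (equivalence, limma adjusted p = 0.00678). ZNF503, a zinc finger repressor, stood at 8.63 ± 0.05 and 8.55 ± 0.05 against 7.80 ± 0.11, and CPA3, a carboxypeptidase of mast cells, at 7.27 ± 0.15 and 7.18 ± 0.16 against 6.12 ± 0.23. DMBT1, a mucosal scavenger receptor, was both called (0.20) and equivalent, at 8.75 ± 0.08, 8.55 ± 0.05 and 7.49 ± 0.11 in Sharp1, shHIF and shGFP cells. So was DDX10, an RNA helicase, lower in Sharp1 cells by 0.24 and above the control in both groups, at 11.46 ± 0.03 and 11.70 ± 0.04 against 10.68 ± 0.04, though the mean of its probe sets was not called.

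Below the control in both groups lay INSIG1, which holds the sterol sensor SCAP in the ER. INSIG1 read 8.59, 8.66, 8.56 and 8.78 in Sharp1 cells, 8.76, 8.56, 8.58 and 8.51 in shHIF cells and 10.05 ± 0.10 in shGFP. The groups overlapped on this probe set (difference 0.05, equivalence, limma adjusted p = 0.00270), but a second probe set was lower in Sharp1 cells by 0.74, and the mean of all 3 was not equivalent. ACOX2, of peroxisomal bile acid synthesis, stood at 6.96 ± 0.04 and 7.0 ± 0.05 against 7.78 ± 0.14. COL12A1 stood at 9.26 ± 0.10 and 9.21 ± 0.11 against 10.02 ± 0.09, and IFIT3, an interferon-stimulated gene, at 9.58 ± 0.07 and 9.46 ± 0.08 against 10.22 ± 0.05. A dimmer COL12A1 probe set was called higher in Sharp1 cells, by 0.39 (limma adjusted p = 0.0211). TNFRSF11A, the RANK receptor, stood at 5.94 ± 0.12 and 5.90 ± 0.13 against 7.04 ± 0.13, and DSC2, a desmosomal cadherin, at 7.15 ± 0.05 and 7.22 ± 0.20 against 8.26 ± 0.13. DSC2 was no longer equivalent without shHIF replicate A or D, CPA3 without any of Sharp1 A, Sharp1 D, shHIF A or shHIF B, and TNFRSF11A with shHIF A and D only.

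**Figure D5:**
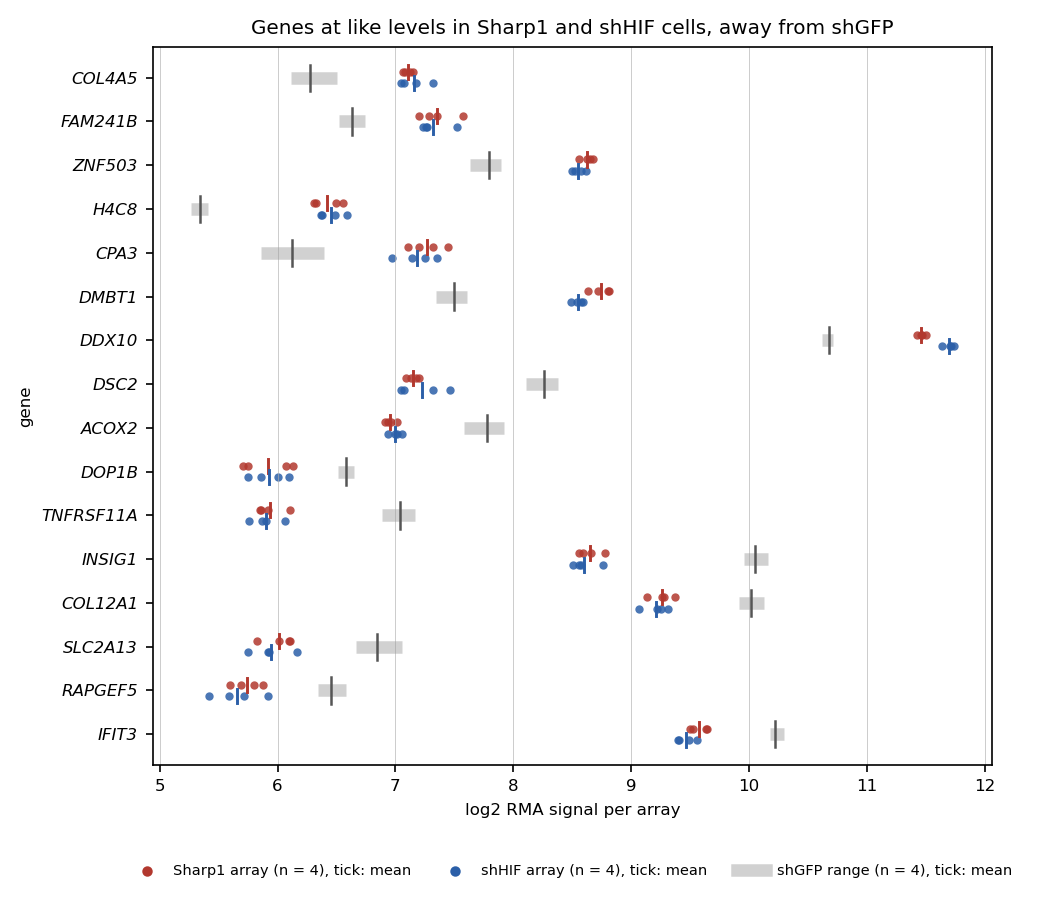
Each point is the log2 signal of 1 array (x axis) for 16 of the genes chosen as alike in Sharp1 (red) and shHIF (blue) cells and furthest from shGFP (grey bar over 4 arrays), with ticks at the means. The means of red and blue lie within 0.24 of each other, to the right of the grey bar from COL4A5 to DDX10 and to the left from DSC2 to IFIT3.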

How the data were processed

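RNA of 12 samples was read on Affymetrix arrays whose table holds 54675 probe sets, and the 4 Sharp1 and 4 shHIF arrays were compared. The deposited values are log2 signals that the authors made with RMA, per the submitters' processing notes. Its version and settings are not named there. RMA corrects background and gives arrays a common distribution, so a shift of all transcripts together would not be seen, and folds of dim probe sets are compressed. Arrays carry no read depth, and their number, 4 per group, limits the precision.

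Of the probe sets, 62 are controls, 41097 carry 1 gene symbol in the platform annotation, 1801 carry several and 11777 are not named. The brightest probe set stood for each of 19775 genes. A model with no covariate was fitted with limma 3.58.1 in R 4.3.3 (lmFit, and eBayes with a trend), adjusted by Benjamini-Hochberg over all genes, and called at an adjusted p under 0.05. Equivalence used paired one-sided tests of the same fit against 1.25-fold. Both tests were tested on simulated data. Array quality used exact permutation tests. Promoters came from RefSeq (GRCh38.p14).

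The members and lists were chosen with earlier results of these data known. The genes named were the targeted genes and CCNG2, the 20 largest differences each way with groups wholly apart, up to 3 called members each way and 2 equivalent members per list, and genes placed by the shGFP level: 10 equivalent genes each way, and 8 called genes each way with shGFP between the groups. Another 15 genes were named after their values were seen. The text names some, not all, of those the rule gave. Altogether 19 alternatives were tried: all 12 arrays in the fit, a block on the replicate letter, leaving out arrays, centring, a filter on dim genes, other probe set rules, eBayes without a trend, array weights and a wider bound.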

Additional observations from a re-analysis of the deposited data

Results flagged for a closer look

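In 18 of 436 groups of 4 arrays examined, 1 array lay far from the other 3 by Dixon's criterion, which chance meets in about 1 group in 20.

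Sharp1 array B was that array most often. It read 8.47 for BHLHE40 (8.75 to 8.78 on the other Sharp1 arrays), 12.32 for KRT19 (12.02 to 12.06), 5.06 for NLGN1 (5.28 to 5.32) and 5.57 for PTGER2 (6.0 to 6.07). For STC1 it read 6.91 (7.40 to 7.47) and for TRNP1 9.59 (9.42 to 9.44). Its ribosomal RNA signal was 12.2, against 13.4 to 13.5 on the other 3. Sharp1 array A read 8.72 for ANKRD37 (8.82 to 8.83) and 6.03 for S100P (6.29 to 6.33).

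Among the shHIF arrays, array A read 6.93 for EFNA1 (7.16 to 7.19 on the others), 7.84 for IRF9 (8.04 to 8.08) and 9.56 for MXI1 (9.72 to 9.73). Array B read 7.52 for FAM241B (7.24 to 7.27) and 8.96 for ID3 (8.76 to 8.79). Array C read 5.81 for COL5A2 (5.47 to 5.52). Array D read 11.13 for CDC25B (10.93 to 10.94) and 9.29 for SERPINE2 (9.15 to 9.16), and its difference between 3' and 5' actin probe sets, in log2, was 0.62 against 0.90 to 0.94. Of the genes named in these sentences that were called between Sharp1 and shHIF, none lost its call when any 1 array was left out.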

How the results depend on the processing

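Of 182 named genes tested for a difference, 169 kept their direction and their side of the threshold in the 17 or 18 alternatives that gave the gene a value, and of 31 tested for equivalence 19 did. Leaving out 1 array at a time gave 6407 to 7454 genes called, 3079 to 3464 higher, 3269 to 3990 lower, 238 to 280 higher and 217 to 234 lower by 2-fold or more, and 7304 to 8932 equivalent. The number equivalent was 5229 when shHIF was represented by arrays A and D alone, 5897 with dim genes left out and 17325 with a bound of 1.5-fold. The number higher by 2-fold or more was 147 with the mean of all probe sets. Without probe sets ending in _x_at or _s_at, BHLHE41 turned to -0.15, GDF15 to 0.034, HES1 to 0.029 and TAGLN to -0.17, because another probe set then stood for the gene. Another probe set of the same gene was called in the opposite direction for 404 called genes.

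The replicate block on the letters A to D gave 7251 genes called and 9249 equivalent and changed no call of the 179 named genes called higher or lower. The letters share no stated culture or day, and the deviations of same-letter arrays correlated at -0.01, -0.10, 0.14 and 0.03, so the letters were not taken as pairs. Probe sets close to background limit what the equivalence test can show.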
